A study of Mus musculus with 16 samples.

Results

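In chow-fed mice, RNA recovered with tagged ribosomes of hypothalamic Pnoc neurons was set against RNA of the hypothalamus as a whole, gene by gene. Pnoc encodes prepronociceptin, from which the peptide nociceptin is cut, a relative of the opioids. The genes described are those that the authors' deposited table for this diet lists as significant, with a value above 0 in both groups and a level of 1 FPKM or more in whichever group was higher (FPKM are sequenced fragments per kilobase of a transcript, corrected for library size). After entries repeating a gene, locus and values were merged, 6105 of 6686 loci listed as significant, from 7234 deposited entries, met this rule. How many loci the authors tested is unknown here. Of the others, 15 were listed at 0 in 1 group and 566 stayed under 1 FPKM. Just inside that limit stood Alas2 at 1.00 FPKM in the input, 4933406P04Rik and Lrp5, and just outside it Haus1, Gcnt4 and Ctsc, the last at 0.993 FPKM.

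All mice had the genotype PNOC-L10a-EGFP on the C57BL/6N strain and were 10 to 12 weeks old. The chow group received a control diet (CD) for 3 days and gave 4 input and 4 immunoprecipitate libraries, and a second group on a high-fat diet (HFD) for the same time gave the same numbers. All groups carry the transgene, and the labels name neither an untagged control nor the promoter and the share of Pnoc cells behind the tag, nor whether a library came from 1 animal or a pool. The tables hold 1 FPKM per group made by the authors, so values per library, read depth and the spread between replicates are unknown here, and no SD can be given. The call for each gene is the authors' q-value at 0.05, and fold changes are ratios of the authors' FPKM in the immunoprecipitate over those in the input.

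In such mice the large ribosomal subunit protein L10a is fused to a green fluorescent protein, so that an antibody against that protein pulls down ribosomes of the tagged cells together with the messenger RNA on them. The input is RNA of all cells of the tissue, including those without the tag. Pnoc neurons of the hypothalamus are largely GABAergic, and those of the arcuate nucleus are known to promote feeding.

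Pnoc itself (GRCm38.p6, chromosome 14, 65400673 to 65425472, minus strand) differed 4.31-fold, with 4.62 FPKM before and 19.9 FPKM after precipitation, and 7 of the 6105 loci had a higher fold. Among these were Gnrh1, the precursor of gonadotropin-releasing hormone, which went from 1.33 to 9.33 FPKM (log2 fold 2.81), and Pmch, the precursor of melanin-concentrating hormone, which went from 459.9 to 2151 FPKM (log2 fold 2.23). Rpl10a, the gene of the tagged protein, went from 215 to 267 FPKM, 1.24-fold. Of the 6105 genes, 3531 (57.8%) were enriched and 2574 (42.2%) depleted. At least 2-fold differences were reached by 253 enriched genes (4.14%) and 1465 depleted ones (24%). The middle of the distribution was therefore not at 0: the median log2 fold was 0.41, the 5th percentile -2.93 and the 95th percentile 0.95, and a centring on that median would by construction leave 50% of the genes on either side. Enrichment lay in a narrow band, with a median of 1.51-fold and 92.8% of enriched genes under 2-fold, whereas the median depleted gene stood at 44.5% of input. Dividing each log2 fold by the statistic in the authors' deposited table gave a median of 0.311, with quartiles of 0.261 and 0.424. This is a rough scale of error, and the authors' calls do not follow from it. C3, for instance, was called at a statistic of 1.42, which read as a normal score would not be significant. Small differences in fold between enriched genes lie within that scale. The plot of input against immunoprecipitate levels shows both bands.

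**Figure D1:**
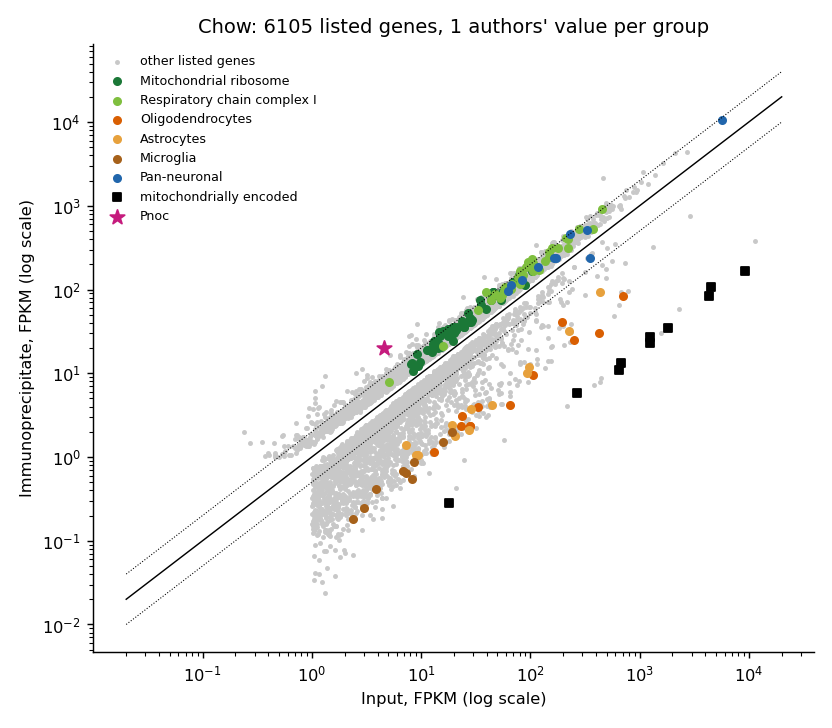
Level of each of the 6105 listed chow genes in the input (x axis, FPKM, log scale) and in the immunoprecipitate (y axis, FPKM, log scale), 1 authors' value per group. The solid line marks equal values and the dotted lines 2-fold differences. The empty gap along the diagonal holds genes that the table does not list. Genes of the mitochondrial ribosome and of complex I lie in the narrow band above the diagonal, glial markers lie about 10-fold below it, mitochondrially encoded transcripts lie farther below it, and Pnoc, at 19.9 FPKM against 4.62, lies at the upper edge of the enriched band with several other genes.

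The label of the comparison was checked against marker genes of the cells the tissue holds. Of 12 markers shared by neurons, 10 were listed and 9 of them enriched, with a median log2 fold of 0.64, from Uchl1, a neuronal deubiquitinase, at 0.999 to Map2, a dendritic microtubule protein, at -0.55. Among all listed genes 57.8% were enriched and 42.2% depleted, with a median of 0.41. All 12 astrocyte markers, all 12 oligodendrocyte markers, the 9 listed of 12 microglial markers and the 6 listed of 12 leptomeningeal markers were depleted, with medians of -3.07, -3.41, -3.41 and -2.41. Summed over the list, oligodendrocyte markers went from 1905 to 209 FPKM and microglial ones from 75.3 to 7.08 FPKM. Of 5 listed endothelial and mural markers, 4 were depleted. Slc1a2, the astrocytic glutamate transporter, had 31.9 FPKM in the immunoprecipitate, beside 19.9 FPKM for Pnoc. Of the other 3 microglial markers the table gives no value that met the rule. What part RNA from untagged cells had in any single value was not tested. In such bulk samples, fewer cells of a type and less RNA per cell cannot be told apart.

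Promoters were read for single-gene coding loci that could be matched by symbol to RefSeq sequences of GRCm38.p6, 2492 of 3174 enriched and 1695 of 2177 depleted ones, 300 bases each from 250 before the start site to 50 after it. The cAMP response element, TGACGTCA, reads the same on both strands and is bound by factors of the CREB family. It stood in a promoter of 4.61% of 2492 enriched genes, 6.83% of 161 genes enriched at least 2-fold and 2.77% of 1695 depleted genes. Of all 27025 promoters 2.03% held it. The groups count genes, some with more than 1 promoter, and the 27025 count promoters, also of genes not listed. Shares of groups and of all promoters therefore differ in unit and in the genes covered. The 11 genes with the element in the 2-fold group included Sst, for the peptide somatostatin, whose element is a textbook example, Cartpt, for the peptide CART, Tubb2a, for a beta-tubulin, and Pax6, a homeobox factor. The promoters of the genes named are shown because these genes belong to 3 different groups described below, peptides, the cytoskeleton and transcription factors. Each is given 5′ to 3′ on the gene's strand, with the element in capitals, and lies at chr16:23890795-23891094 (minus strand), chr13:99900634-99900933 (minus), chr13:34077959-34078258 (minus) and chr2:105668646-105668945 (plus). A match is a description of these letters and not evidence of binding.
Sst: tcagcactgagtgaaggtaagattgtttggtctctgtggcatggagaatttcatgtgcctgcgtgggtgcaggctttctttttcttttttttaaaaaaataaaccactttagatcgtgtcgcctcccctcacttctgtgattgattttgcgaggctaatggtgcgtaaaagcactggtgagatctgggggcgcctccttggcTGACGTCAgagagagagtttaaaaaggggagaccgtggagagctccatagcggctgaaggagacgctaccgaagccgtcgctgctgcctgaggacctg
Cartpt: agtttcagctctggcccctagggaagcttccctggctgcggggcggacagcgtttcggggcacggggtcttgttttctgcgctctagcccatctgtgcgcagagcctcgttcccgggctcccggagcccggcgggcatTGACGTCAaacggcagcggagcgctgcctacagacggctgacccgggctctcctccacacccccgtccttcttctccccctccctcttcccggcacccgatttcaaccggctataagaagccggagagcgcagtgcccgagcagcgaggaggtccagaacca
Tubb2a: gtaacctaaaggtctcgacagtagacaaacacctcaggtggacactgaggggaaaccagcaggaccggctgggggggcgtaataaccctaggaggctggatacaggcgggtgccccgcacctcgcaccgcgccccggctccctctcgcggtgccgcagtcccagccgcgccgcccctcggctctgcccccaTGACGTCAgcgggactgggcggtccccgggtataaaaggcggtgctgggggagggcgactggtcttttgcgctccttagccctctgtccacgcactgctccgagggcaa
Pax6: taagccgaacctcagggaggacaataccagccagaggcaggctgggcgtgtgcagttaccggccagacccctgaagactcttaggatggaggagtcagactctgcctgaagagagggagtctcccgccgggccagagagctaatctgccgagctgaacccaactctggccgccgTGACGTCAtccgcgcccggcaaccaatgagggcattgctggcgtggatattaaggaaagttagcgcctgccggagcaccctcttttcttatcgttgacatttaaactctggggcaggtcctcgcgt
The element began 48 bases before the start site in Sst, 112 in Cartpt, 59 in Tubb2a and 76 in Pax6. In levels, Sst went from 112 to 337 FPKM (log2 fold 1.59), Cartpt from 35.5 to 81.03 FPKM (log2 fold 1.19), Tubb2a from 199.8 to 436 FPKM (log2 fold 1.13) and Pax6 from 8.36 to 17.5 FPKM (log2 fold 1.07). Other motifs were counted on both strands. The E-box CACGTG stood in promoters of 12.2% of enriched and 10.9% of depleted genes (8.09% of all promoters). GGGCGG, or its reverse complement, stood in those of 69.2% and 68.7% of genes (38.2% of all promoters). TGACTCA, the AP-1 motif, or its reverse complement stood in those of 3.73% and 4.37% (5.95% of all promoters). TATAAA or its reverse complement stood in promoters of 8.71% of enriched and 10.6% of depleted genes, and of 15.5% of genes enriched at least 2-fold (15.7% of all promoters).

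Ion channels that shape firing were mostly enriched, by moderate amounts, where 57.8% of all listed genes were enriched. All 10 listed subunits of voltage-gated calcium channels were enriched (median log2 fold 0.62), led by Cacnb1 at 0.83 and ending with Cacna1c, the pore of the L-type channel, at 0.35. Sodium channels had 6 of 7 enriched, among them Scn1a, a pore subunit of many interneurons, which went from 35.3 to 61.02 FPKM (log2 fold 0.79). The exception was Scn7a, which responds to extracellular sodium rather than voltage and is known from glia and the subfornical organ, at 1.43 FPKM before and 1.01 FPKM after precipitation. Among voltage-gated potassium channels and their partners, 18 of 22 were enriched, and of the fast Kv3 family that supports rapid firing Kcnc4 stood at 0.78, Kcnc1 at 0.59 and Kcnc2 at 0.59. Auxiliary proteins of the Kv4 family were split, since Kcnip1 rose (0.66) and Kcnip3 fell from 54.1 to 25.3 FPKM.

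Inward rectifiers were split. Kcnj3 and Kcnj9, which form channels opened by G proteins in neurons, had log2 folds of 0.72 and 0.77, and Kcnj12 had 0.91. Kcnj10, the main potassium channel of astrocytes and oligodendrocytes, went from 76.1 to 7.17 FPKM (log2 fold -3.41), and its partner Kcnj16 from 17.3 to 2.12 FPKM (log2 fold -3.03). The group counted 7 enriched of 10 listed (70%, beside 57.8% of all listed genes). Cation channels of the HCN and TRP families had 7 of 9 enriched, including the sodium leak channel Nalcn at 0.57 and Hcn3 at 0.79, against Trpm3 at -1.05. Of 10 listed pumps that restore ion gradients, 8 were enriched. Atp2a1, a calcium pump known mainly from fast muscle, had the group's highest fold, 4.19, at the low levels of 1.06 and 4.44 FPKM.

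Receptors for fast transmitters followed the channels. Of 8 listed genes of the ionotropic glutamate receptor group 6 were enriched (75%, beside 57.8% of all listed genes). The highest fold there, a log2 fold of 1.33, was that of Grid2ip, a scaffold protein and not a receptor subunit. The obligatory NMDA receptor subunit Grin1 had a log2 fold of 1.04, whereas the AMPA receptor subunit Gria1 fell by 0.32 on that scale. The metabotropic and GABA-B group had 5 of 6 enriched. Gabbr1 and Gabbr2, which together form the GABA-B receptor, went from 112 to 181 FPKM (log2 fold 0.70) and from 62.5 to 113 FPKM (log2 fold 0.86). Grm3, a metabotropic receptor abundant in astrocytes, went from 20.5 to 8.002 FPKM (log2 fold -1.36). Acetylcholine receptors had 4 of 6 enriched (66.7%), with Chrna4 and Chrnb2, which pair in the common brain nicotinic receptor, at 0.76 and 0.71. Chrna6 and Chrnb3, subunits typical of midbrain dopamine neurons, fell to 22.4% and 16.9% of input.

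Receptors for modulators were enriched in 9 of 10 listed cases for monoamines and in 14 of 18 for neuropeptides, against 57.8% of all listed genes. The histamine receptor Hrh3, an autoreceptor of histamine neurons that other neurons carry too, went from 24.5 to 50.8 FPKM (log2 fold 1.05), and the serotonin-gated channel Htr3a from 0.805 to 1.698 FPKM (log2 fold 1.08). Adra1b, an adrenergic receptor, stood at a log2 fold of 1.01, and Htr4 was the single member depleted (-0.48). Among peptide receptors the highest folds were those of Vipr2 for VIP and PACAP (1.01), Sstr1 for somatostatin (0.97), Qrfpr (0.86), and Tacr3 for neurokinin B (0.82). These receptors were scarce, with Vipr2 at 4.68 FPKM and Sstr1 at 2.57 FPKM in the immunoprecipitate. Opioid receptors went both ways: Oprl1, which binds nociceptin, had 0.52, while Oprk1, which binds dynorphin, had -0.40. The 2 lowest belong to other cells as background has it, Calcrl to endothelium (-1.38) and Ntsr2 to astrocytes, the latter going from 51.2 to 6.25 FPKM (log2 fold -3.03). Of 21 listed orphan receptors 15 were enriched, from Gpr12 at 1.12 down to Gpr17, a receptor of oligodendrocyte precursors, at -3.23.

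Downstream of these receptors, signalling genes went both ways within families. G protein subunits were split into 7 enriched and 8 depleted (46.7% enriched, beside 57.8% of all listed genes). Gng3, a neuronal gamma subunit, went from 321 to 733 FPKM (log2 fold 1.19), Gnas, the stimulatory alpha subunit, from 1394 to 2345 FPKM (log2 fold 0.75), and Gnal, its olfactory and striatal relative, from 109 to 139 FPKM (log2 fold 0.36). The more widely expressed Gng12 and Gng11 stood at 28.9% and 7.96% of input, and the alpha subunits Gna12 and Gna13 at 25.4% and 30.3%. Regulators that speed up the G protein cycle had 7 of 8 enriched, with Rgs16 at 1.07 and Rgs4 at 0.56. Rgs5, a pericyte marker, was the exception at -2.81. Of 14 kinases of the CaMK and protein kinase C families, 12 were enriched. Prkcd went from 48.4 to 133 FPKM (log2 fold 1.46) and Prkch from 4.75 to 10.2 FPKM (log2 fold 1.10), both calcium-independent forms of protein kinase C, while Prkcq, another such form, stood at -1.08.

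The release machinery was enriched with few exceptions, where 57.8% of all listed genes were enriched. Of 18 listed genes of the SNARE complex and active zone 15 were enriched (median 0.59). Snap25, which had the highest level of all listed genes in the immunoprecipitate, went from 5659 to 10483 FPKM (log2 fold 0.89), and its partners Vamp2 and Stx1a had log2 folds of 0.72 and 0.66. The 3 depleted members were Bsn (-0.50) and Pclo (-1.19), giant scaffolds of the active zone, and the priming factor Unc13b (-0.54). In the vesicle membrane, 15 of 17 were enriched. Slc32a1, which loads vesicles with GABA, went from 24.3 to 52.3 FPKM (log2 fold 1.11) and stood above the glutamate carriers Slc17a7 (0.80) and Slc17a6 (0.47) in fold, though Slc17a6 was more abundant at 85.6 FPKM. Slc18a2, the monoamine carrier, was depleted at -0.37. Synaptotagmins, the calcium sensors of release, had 7 of 8 enriched, from Syt5 at 0.82 to Syt14 at -0.85. Postsynaptic scaffolds had 7 of 9, with Dlg4, the PSD-95 gene, going from 272 to 401 FPKM (log2 fold 0.56).

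Secreted and membrane proteins that build synapses held some of the larger folds. Of 25 listed synaptic organisers 22 were enriched (median 0.66), and 5 of them at least 2-fold. Of all listed genes 57.8% were enriched and 4.14% reached that size. Cbln2 and Cbln4, secreted bridges between neurexins and postsynaptic receptors, went from 7.78 to 28.2 FPKM (log2 fold 1.85) and from 10.7 to 24.96 FPKM (log2 fold 1.22). Lrrtm1, a postsynaptic partner of neurexins, went from 14.5 to 32.5 FPKM (log2 fold 1.17), Ntng1, a netrin-like ligand of axons, from 46.1 to 97.3 FPKM (log2 fold 1.08), and the calsyntenin Clstn3 from 27.3 to 55.2 FPKM (log2 fold 1.02). Nrxn3, the presynaptic receptor of cerebellins, stood at 0.95. Their relatives Ntng2 (-1.10), C1ql3 (-0.68) and Slitrk2 (-0.41) were depleted. Cadherins and protocadherins had 10 of 13 enriched, with Cdh18 from 28.4 to 52.3 FPKM (log2 fold 0.88) and Cdh19, known from the oligodendrocyte and Schwann cell lineages, from 2.88 to 0.261 FPKM (log2 fold -3.47). Guidance genes were mixed. Semaphorins, plexins and neuropilins had 8 enriched and 7 depleted, with Sema3f at 0.85 and Plxnb3, a plexin of oligodendrocytes, at -3.33. Of 6 ephrin pathway genes 4 were enriched, led by Ephb6 at 1.20, and the netrin Ntn1 and its receptor Unc5b fell by 1.91 and 1.90 on the log2 scale.

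Among cytoskeleton and transport genes, all 9 listed tubulin loci were enriched (median 0.75), from Tubb2a, given above, to the locus that the table shares between Tuba1a and Tuba1b, where reads of near-identical copies cannot be assigned. Microtubule-associated proteins had 9 of 13 enriched (69.2%, beside 57.8% of all listed genes). Among them were the 4 stathmins, which bind free tubulin, with Stmn3 from 166 to 362 FPKM (log2 fold 1.13), Stmn1 at 0.74, Stmn2 at 0.65 and Stmn4 at 0.37. Dcx, a protein of migrating young neurons, had the lowest fold of that list and went from 8.32 to 3.26 FPKM (log2 fold -1.35). Dynein and dynactin genes had 10 of 13 enriched. The light chain Dynlrb1 went from 575 to 999 FPKM (log2 fold 0.80), whereas the heavy chain Dync1h1 went from 22.8 to 16.8 FPKM (log2 fold -0.44) and Dynlrb2, a ciliary light chain, from 3.91 to 0.298 FPKM (log2 fold -3.71). Kinesins had 6 enriched and 7 depleted: the light chains Klc2 (1.15) and Klc1 (0.75) rose while the heavy chains Kif5a (-0.97) and Kif5b (-0.65), to which they bind, fell. Unconventional myosins had 1 of 8 enriched (median -1.51), with Myo6 at 15.05% of input. Intermediate filaments ranged from peripherin, Prph (3.88-fold), through the neurofilaments Nefm (0.60), Nefl (0.47) and Nefh (0.39) to Vim and Gfap, both glial, at 20.02% and 13.05% of input.

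The pathway that makes and stores peptides was enriched at most steps. All 6 listed granins and related proteins of dense-core vesicles rose (median 0.76). Vgf, a precursor of several peptides with actions on energy balance, went from 11.2 to 29.5 FPKM (log2 fold 1.41), followed by Scg5 (0.92), Chga (0.80), Pcsk1n (0.71), Chgb (0.59) and Scg2 (0.49). Enzymes that cut and finish peptides had 3 of 5 enriched (60%), near the 57.8% of all listed genes. The enriched ones were the convertase Pcsk2 from 31.7 to 52.6 FPKM (log2 fold 0.73), Qpct, which cyclises N-terminal glutamine, at 0.53 and Pam, which amidates peptides, at 0.47. Cpe, which trims basic residues and is also abundant in glia, went from 367 to 276 FPKM (log2 fold -0.41). The other depleted member had the lowest log2 fold of that list, -0.85. Entry into the endoplasmic reticulum had 14 of 17 enriched, with Sec61g, a channel subunit, at 0.86, and coat proteins COPI and COPII had 9 of 11. Proton pump subunits that acidify vesicles and lysosomes had 15 of 17 enriched, among them Atp6v0b from 126 to 278 FPKM (log2 fold 1.14) and Atp6v0c from 102 to 209 FPKM (log2 fold 1.04). Lysosomal cathepsins and membrane proteins were even, 6 and 6, with Ctsb at 0.59 and Ctss, the microglial cathepsin, at -3.40.

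Genes that define interneuron classes were enriched in all 12 of 12 listed cases of 18 (median 0.74). After Sst came Cck, the cholecystokinin precursor, from 160.1 to 370.2 FPKM (log2 fold 1.21), Sncg, gamma-synuclein, from 27.9 to 62.1 FPKM (log2 fold 1.15), and Calb2, the calcium buffer calretinin, from 30.6 to 61.1 FPKM (log2 fold 0.997). Pvalb, parvalbumin, had the lowest fold at 0.41. Calcium buffers and sensors were enriched in all 15 listed cases, with Necab3 from 23.02 to 49.99 FPKM (log2 fold 1.12), Vsnl1, visinin-like 1, from 1640.1 to 3254 FPKM (log2 fold 0.99) and Hpca, hippocalcin, from 180.2 to 335 FPKM (log2 fold 0.90). Peptides and enzymes of the arcuate nucleus and its neighbours held a wide range, 16 enriched and 9 depleted of 25 listed, which is 64% beside 57.8% of all listed genes. Trh, the thyrotropin-releasing hormone precursor, went from 9.29 to 21.5 FPKM (log2 fold 1.21), Nts, neurotensin, from 9.14 to 18.3 FPKM (log2 fold 1.001), and Gal, galanin, from 21.6 to 41.9 FPKM (log2 fold 0.96), none of which is limited to Pnoc cells in the tissue. Grp, gastrin-releasing peptide, stood at 0.63 and Adcyap1, the PACAP precursor, at 0.60. Of the 25 listed, 10 were enriched at least 2-fold, where 4.14% of all listed genes were. The highest were Pmch, given above, Tac2 (1.91) and Hdc (1.80). Depleted at least 2-fold were 7 of the 25, where 24% of all listed genes were. Pomc, the precursor of melanocortins, went from 86.8 to 13.6 FPKM (log2 fold -2.68), Hcrt, the orexin precursor, from 116 to 12.9 FPKM (log2 fold -3.17), and Oxt, the oxytocin precursor, from 26.99 to 2.83 FPKM (log2 fold -3.26).

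**Figure D2:**
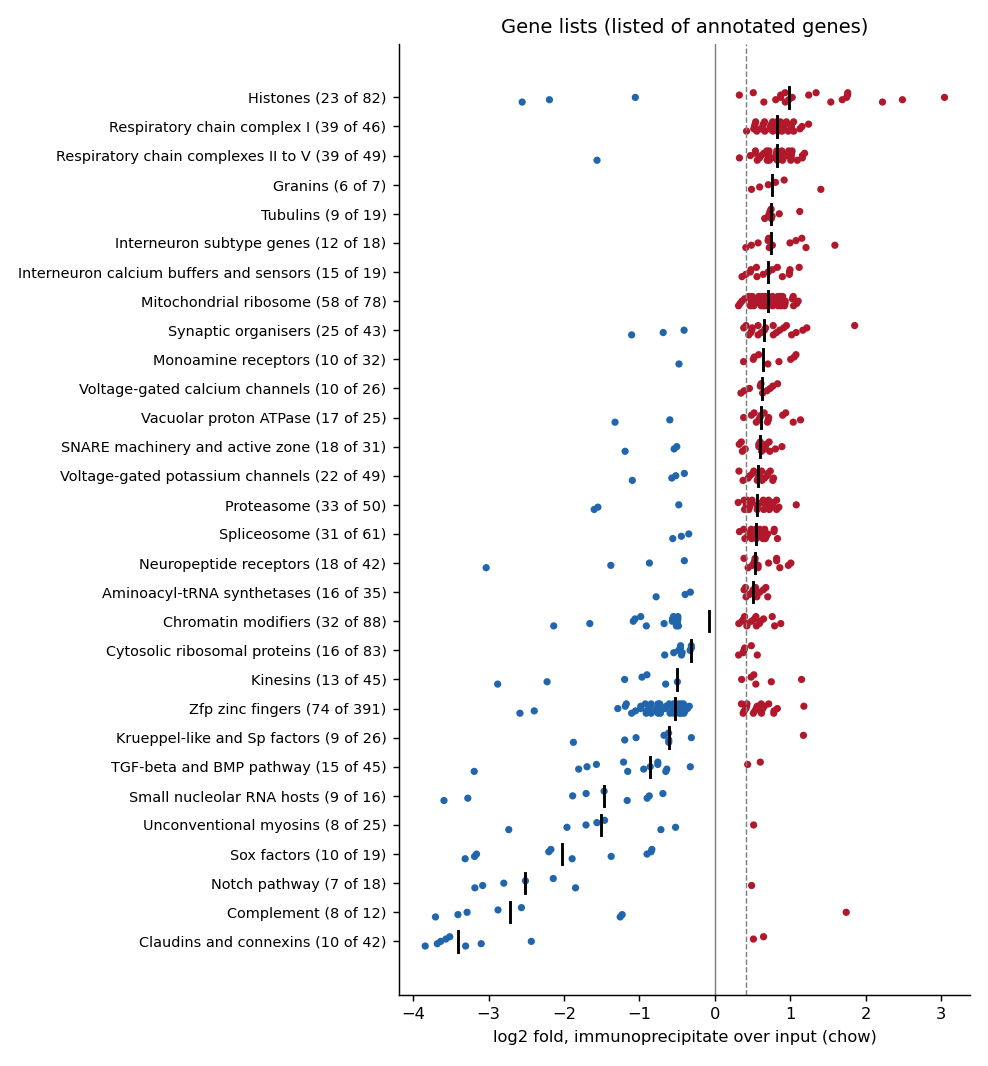
Log2 fold of immunoprecipitate over input in chow (x axis) for each listed gene of 30 of the 92 gene lists (y axis, with the number listed of those annotated), from the list with the highest median at the top to the lowest. Each dot is 1 gene, red if enriched and blue if depleted, the short black bar is the list's median, the solid line marks 0 and the dashed line the median of all listed genes, 0.41. Both lists of the respiratory chain and that of the mitochondrial ribosome sit in tight clusters, mostly right of the dashed line and with Uqcrc1 as their only gene below 0, kinesins, zinc fingers and chromatin modifiers straddle 0, and Sox factors have no gene to the right.

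Among transcription factors, the Sox, Krueppel-like and Sp, nuclear receptor and Zfp genes had smaller shares enriched than the 57.8% of all listed genes. Homeobox factors stood at that share, with 18 of 31 enriched (58.1%), and 8 of them were enriched at least 2-fold (4.14% of all listed genes were). Bsx, a factor of the developing arcuate and other hypothalamic nuclei, went from 2.31 to 5.97 FPKM (log2 fold 1.37), and Dlx5, a factor of GABAergic neurons, from 5.12 to 10.97 FPKM (log2 fold 1.10). At the other end stood Irx2 (-1.76), Irx1 (-1.74) and Nkx2-9 (-2.16). All 10 listed Sox factors were depleted (median -2.03). The glial members Sox10, Sox8 and Sox9 had 10.1%, 10.99% and 11.2% of input, while Sox11 (56.1%), Sox5 (55.6%) and Sox2 (53.6%) were depleted less. Krueppel-like and Sp factors had 1 of 9 enriched, namely Sp9, a factor of developing GABAergic neurons (1.17), against Klf15 (-1.04) and Sp1 (-1.88). Nuclear receptors had 4 of 11 enriched. Thra, a thyroid hormone receptor, went from 107 to 153 FPKM (log2 fold 0.52), and Nr3c1, the glucocorticoid receptor, from 21.4 to 16.2 FPKM (log2 fold -0.41). Zfp zinc finger genes had 20 of 74 enriched (median -0.53), from Zfp385b at 1.18 to Zfp36, an RNA-binding protein that the list took in by its name, at -2.58.

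Among developmental signalling pathways, Notch, TGF-beta and BMP, and Wnt genes were depleted in most members, and neurotrophin genes were not. Among all listed genes 57.8% were enriched and 42.2% depleted. Some of the medians depended on genes at low levels. With a minimum of 5 FPKM the median went from -2.51 to -1.35 for Notch and from -1.11 to -0.83 for Wnt genes. A pseudocount of 1 FPKM gave -1.16 and -0.66. In the Notch pathway 1 of 7 listed genes was enriched, Hes6, which acts against other Hes factors (0.49), and the rest ranged from Hes1 (-1.85) to Heyl (-3.18). The TGF-beta and BMP pathway had 2 of 15 enriched (median -0.86), with the receptor Bmpr1b going from 4.35 to 0.476 FPKM (log2 fold -3.19). Wnt ligands and receptors had 3 of 13. Wnt9b, a ligand, went from 0.353 to 1.496 FPKM (log2 fold 2.08) and Sfrp2, a secreted inhibitor, from 1.94 to 4.53 FPKM (log2 fold 1.22), both at low levels, while the receptors Fzd2 and Lrp5 stood at 10.4% and 15.8% of input. Fibroblast growth factors and receptors had 4 of 7 enriched, near the share of all listed genes. The intracellular members Fgf12 (0.67) and Fgf13 (0.70), which bind sodium channels, rose with Fgf9 (0.57), and the receptor Fgfr3 fell to 11.5% of input. Neurotrophin genes had 5 of 6 enriched. Bdnf stood at 0.36, and Ntrk2, the BDNF receptor that astrocytes carry in truncated form, went from 114 to 41.8 FPKM (log2 fold -1.45).

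Immune and barrier genes were depleted in most members, and some of their medians depended on genes at low levels. With a minimum of 5 FPKM, the median went from -1.41 to -0.27 for MHC genes. It went from -1.99 to -0.54 for laminins, integrins and basement membrane genes. With that minimum it was -3.54 for claudins and connexins, -3.35 for complement and -0.74 for interferon-related genes. Complement had 1 of 8 enriched (median -2.72, or -1.04 with a pseudocount of 1 FPKM), with C1qa at 7.67% of input. The enriched gene was C3, which went from 0.544 to 1.82 FPKM (log2 fold 1.74), at low levels and with a statistic of 1.42. Interferon-related genes had 2 of 14 enriched, 1 of them a locus shared with the cathepsin gene Ctsd, and Ifitm3 stood at 10.5% of input. Of 8 MHC genes 3 were enriched, 1 of which, H2-Ke6, lies in the MHC region but is an enzyme gene and shares its locus with Slc39a7. H2-D1 went from 8.21 to 11.8 FPKM (log2 fold 0.52), while its relative H2-K1 went from 6.82 to 1.95 FPKM (log2 fold -1.81) and B2m, the light chain of class I, from 87.9 to 42.4 FPKM (log2 fold -1.05). H2-D1 and H2-K1 are close in sequence, so the split of reads between them is uncertain. Claudins and connexins had 2 of 10 enriched (median -3.41), and the other 8 were depleted at least 2-fold. Gja1, the astrocytic connexin 43, went from 20.3 to 1.77 FPKM (log2 fold -3.52), and Cldn11, of myelin, from 28.02 to 2.37 FPKM (log2 fold -3.57), while the neuronal connexin Gjc1 stood at 0.51. Laminins, integrins and basement membrane genes had 5 of 18 enriched, with Itga3 at 0.89 and Itgb4 at -2.69. By the gene ontology terms in the authors' deposited table, 18 of 76 genes of collagen-containing extracellular matrix (23.7%) were enriched, against 57.8% of all listed genes.

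Several close relatives that share a biochemical task went in opposite directions, and they were paired after their values were seen. In the citric acid cycle Sucla2, the ATP-forming subunit of succinyl-CoA synthetase, went from 49.96 to 67.3 FPKM (log2 fold 0.43), and Suclg2, the GTP-forming one, from 9.82 to 1.74 FPKM (log2 fold -2.49). Among glucose carriers, neuronal Slc2a3 went from 22.97 to 30.4 FPKM (log2 fold 0.41) and Slc2a1, of endothelium and astrocytes, from 13.96 to 7.39 FPKM (log2 fold -0.92). Aldolases split likewise, with Aldoa from 655 to 1005 FPKM (log2 fold 0.62) and Aldoc, typical of astrocytes, from 599 to 354 FPKM (log2 fold -0.76). The sodium pump beta subunits Atp1b1 and Atp1b2 went from 536 to 989 FPKM (log2 fold 0.88) and from 194 to 119.9 FPKM (log2 fold -0.70). In the proton pump, Atp6v0e2 rose (0.65) and Atp6v0e fell (-1.32). The vesicle protein Syp went from 429 to 775 FPKM (log2 fold 0.85), against its non-neuronal relative Sypl, which went from 12.98 to 5.86 FPKM (log2 fold -1.15). In the proteasome, the constitutive catalytic subunits Psmb5 (0.82) and Psmb6 (0.85) rose and their interferon-induced replacements Psmb8 (-1.55) and Psmb9 (-1.60) fell, while the other replacement, Psmb10, rose (0.78). In each such pair shown in the plot of related genes, the member that rose was also the more abundant in the input.

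**Figure D3:**
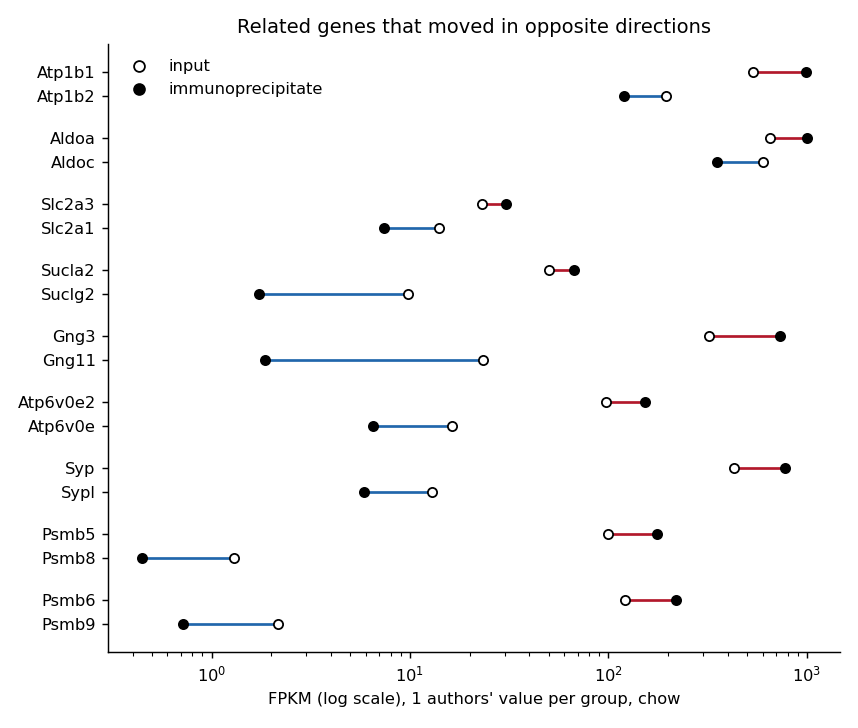
Level of 9 pairs of related genes in the chow input (open circles) and immunoprecipitate (filled circles), in FPKM on a log scale, 1 authors' value per group. Red lines join genes that rose and blue lines genes that fell. The blue line of Gng11 runs from 23.4 down to 1.86 FPKM beside the red line of Gng3 from 321 up to 733 FPKM.

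Mitochondrial genes of the nucleus were among the most uniform groups. All 39 listed genes of complex I subunits and assembly factors, of 46 annotated, were enriched, with a median log2 fold of 0.82 and 8 at least 2-fold. Of all listed genes 57.8% were enriched and 4.14% at least 2-fold. The highest fold was that of the subunit gene Ndufb7, which went from 39.5 to 93.4 FPKM (log2 fold 1.24), and the lowest that of the assembly factor Ndufaf7, which went from 15.9 to 21.2 FPKM (log2 fold 0.42). Of 39 listed genes of complexes II to V, 38 were enriched (median 0.82), including Cox5a from 126 to 283 FPKM (log2 fold 1.16) and Uqcrq from 163 to 372 FPKM (log2 fold 1.19). Uqcrc1, a core subunit of complex III, was the exception at the low levels of 1.25 and 0.424 FPKM. All 58 listed mitochondrial ribosome genes, of 78, were enriched (median 0.70), from Mrpl34 at 1.11 to Mrps2 at 0.31, and 16 of 17 import genes, led by the pore Tomm40 from 14.4 to 29.6 FPKM (log2 fold 1.04). The complex I subunits that mitochondria encode went the other way. mt-Nd1 fell from 4467 to 107 FPKM, 2.401% of input, in a locus shared with a transfer RNA, and mt-Nd2 from 1237 to 27.4 FPKM, also in a locus shared with a transfer RNA. These transcripts are translated inside the mitochondrion by its own ribosomes, which do not carry L10a.

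Energy metabolism in the cytosol and matrix was enriched less. Of 14 listed citric acid cycle genes 12 rose (median 0.49), the 3 subunits of the NAD-dependent isocitrate dehydrogenase at 0.50 (Idh3a), 0.58 (Idh3b) and 0.47 (Idh3g). Idh2, the NADP-dependent form, stood at -0.70. Glycolysis had 13 of 16 enriched (median 0.47), with Eno2, the neuronal enolase, from 224 to 349 FPKM (log2 fold 0.64), Pkm at 0.59 and Ldha at 0.56. Slc16a1, a lactate carrier of glia and endothelium, stood at -0.64. In cholesterol synthesis 7 of 9 rose, with Pmvk at 0.51 and Sqle at 0.36, and the regulator Srebf1 fell (-1.62). Solute carriers as a whole had 54 of 113 enriched (47.8%, beside 57.8% of all listed genes). The nucleoside carrier Slc29a1 went from 4.74 to 11.3 FPKM (log2 fold 1.25), the zinc carrier of synaptic vesicles Slc30a3 from 3.13 to 6.17 FPKM (log2 fold 0.98), and the cystine carrier Slc7a11, known from astrocytes, from 7.604 to 0.629 FPKM (log2 fold -3.60).

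Genes that make, fold and degrade proteins and process RNA lay near the centre of the enriched band. The proteasome had 30 of 33 enriched (median 0.56), aminoacyl-tRNA synthetases 13 of 16 (median 0.50), chaperones 35 of 40 (median 0.49) and the spliceosome 28 of 31 (median 0.55). Among all listed genes 57.8% were enriched and the median was 0.41, so these medians lay a little above it. Hspa4l, a co-chaperone of the HSP110 family, had the highest fold among chaperones, with 0.537 and 1.78 FPKM. Translation factors had 20 of 24 enriched. Eef1a2, the elongation factor isoform of neurons and muscle, went from 90.3 to 147 FPKM (log2 fold 0.70), and Pabpc1, which binds poly(A) tails, from 225 to 128 FPKM (log2 fold -0.82). Cytosolic ribosomal proteins differed from all of these, with 6 of 16 listed genes enriched (83 are annotated) and a median of -0.32. Rpl5, for instance, went from 148 to 106 FPKM (log2 fold -0.48). They have many processed copies in the genome, so their values are uncertain. Chromatin modifiers were even, 16 and 16 of 32. Brd9 (0.87) and Smarca2 (0.65), of remodelling complexes, were enriched, and the long genes Chd7 (-2.14), Kmt2c (-1.08) and Kmt2d (-0.91) were depleted.

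Histone genes had 20 of 23 listed members enriched and 11 of them at least 2-fold, where 57.8% and 4.14% of all listed genes were. Most of the highest were replication-dependent copies, whose RNA normally ends without a poly(A) tail. Hist1h4h went from 1.07 to 4.99 FPKM (log2 fold 2.22) and Hist1h4d from 32.5 to 77.1 FPKM (log2 fold 1.24), while Hist1h2bc went from 20.8 to 3.54 FPKM (log2 fold -2.55). Copies of histone H4 are near-identical in sequence, so reads may be split among them. The variants H2afz from 139 to 265 FPKM (log2 fold 0.93) and H2afx from 11.05 to 21.1 FPKM (log2 fold 0.93) have polyadenylated RNA or both forms and rose as well. Imprinted genes, many of which are active in the hypothalamus, had 9 of 16 enriched (56.2%), near the 57.8% of all listed genes. Ndn, necdin, went from 87.5 to 154 FPKM (log2 fold 0.82), and Nap1l5 from 556 to 906 FPKM (log2 fold 0.70). Nnat, neuronatin, went from 454 to 196 FPKM (log2 fold -1.21), and Cdkn1c, an inhibitor of the cell cycle, from 5.67 to 2.301 FPKM (log2 fold -1.30).

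Transcripts without a coding frame were depleted in most cases. Among single-gene loci, 59.3% of 5351 protein-coding genes were enriched, against 27 of 114 lincRNAs (23.7%), 9 of 35 antisense genes (25.7%) and 10 of 33 processed transcripts (30.3%). The median lincRNA had 44.6% of its input level. Bc1, a short neuronal RNA made by RNA polymerase III that is transported into dendrites and not translated, went from 96.2 to 7.92 FPKM (log2 fold -3.60), and was picked after its values were seen. All 9 listed hosts of small nucleolar RNAs were depleted (median -1.47), with Snhg11, a neuronal one, going from 78.8 to 8.14 FPKM (log2 fold -3.28). The transcript with the highest input level, Gm37376, had 11485 FPKM there and 381 FPKM in the immunoprecipitate. Its deposited locus on chromosome 19, 5795690 to 5802672 (GRCm38.p6), is that of Malat1, a nuclear RNA on the other strand, while the annotated gene spans 5801941 to 5802393, so its reads may be those of Malat1. Processed pseudogenes, which are copies of spliced messengers, had 107 of 135 enriched (79.3%), a share above that of coding genes. Of 11 unprocessed pseudogenes 1 was enriched, and their median was 2.78% of input, a value close to those of mitochondrially encoded transcripts. The tables do not show whether such reads were counted at the parent gene as well.

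Direction moved with the length of the transcript. Over 5348 single-gene coding loci with an annotated transcript, the median length was 2360.5 bases for enriched and 3663 bases for depleted genes, beside 2539 bases for all annotated coding genes. With these genes in 10 equal bins of length, the share enriched was 78.3% in bin 1 (306 to 1120 bases), 80.2% in bin 2, 63.7% in bin 5, 37.9% in bin 9 and 25.05% in bin 10 (6295 bases and longer). Across genes, which are not independent replicates, Spearman's rank correlation between length and log2 fold was -0.34 and Pearson's r -0.17. The 3' untranslated region had a median of 744 bases among enriched and 1401 bases among depleted genes. GC content followed the opposite course, with medians of 52.9% and 48.8% and a rank correlation of 0.29. The share enriched was 35.1% in the bin with the lowest GC content and 79.6% in that with the highest.

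**Figure D4:**
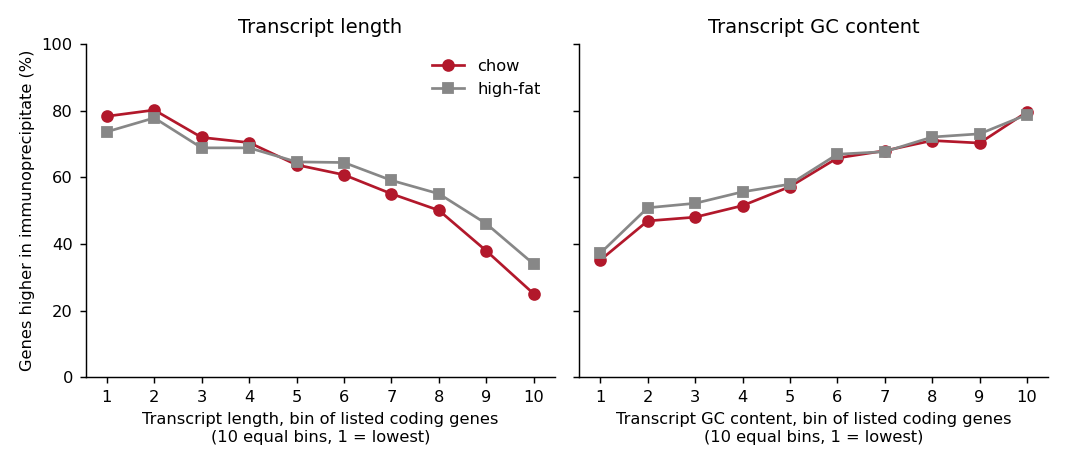
Percent of listed single-gene coding loci that were higher in the immunoprecipitate (y axis) in 10 equal bins of transcript length (left) and of transcript GC content (right), for chow (red circles, 5348 genes) and the high-fat diet (grey squares, 5232 genes). In chow the share falls from 78.3% to 25.05% with length and rises from 35.1% to 79.6% with GC content, and the high-fat values run close to it.

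The level in the input moved with direction as well. The input level is also the denominator of the fold. Of 1081 genes from 2 to 5 FPKM in the input 35.4% were enriched, of 1062 genes from 5 to 10 FPKM 51.6%, and of 525 genes from 50 to 100 FPKM 80.6%. The relation with length was seen within each range of level. Among genes of at least 20 FPKM in the input, the share enriched was 89.02% in the shortest of 4 equal bins of length and 60.6% in the longest, from 5 to 20 FPKM it was 77.4% and 27.96%, and from 1 to 5 FPKM 45.5% and 15.5%. It was also seen within gene lists: the rank correlation between length and fold was negative in all 8 lists with at least 30 members that had a length, from -0.18 for solute carriers to -0.47 for complex I. Groups in which nearly all members were enriched included short ones, with a median of 908 bases for complex I, 1280 for the mitochondrial ribosome and 1311 for the proteasome, and unconventional myosins were long, at 5709.5 bases. Long groups were also enriched, with a median of 3825 bases for voltage-gated calcium channels (10 of 10 enriched) and 7338 for sodium channels (6 of 7). Glial lists, all of whose listed members were depleted, had medians of 1145.5 bases for microglia, 2492 for oligodendrocytes and 4149 for astrocytes. The part of transcript length, GC content and level in the fold of any single gene or list was not tested.

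By chromosome, the share enriched ran from 46.7% of 330 genes on chromosome 3 and 47.4% of 344 on chromosome 1 to 65.3% of 265 on chromosome 17 and 66.3% of 261 on the X chromosome, with 0 of 10 loci of the mitochondrial genome. Chromosome 14, which carries Pnoc and Gnrh1, had 50.7% of 205.

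The high-fat table rests on other libraries and was processed by the same rule, which left 5966 genes, 59.6% of them enriched and 40.4% depleted, with 3.03% at least 2-fold enriched and 23.4% at least 2-fold depleted. It also held 5149 of the chow genes, 84.3% of the chow list and 86.3% of its own. All 5149 had the same direction, 2983 of them enriched in both. Across these genes Pearson's r between the log2 folds was 0.99 and Spearman's rank correlation 0.96, the median absolute difference was 0.091 and the 95th percentile of it 0.42. Since both tables list significant genes alone, a gene near 0 in either is missing from these values. Of the 253 genes enriched at least 2-fold in chow, 212 were among these shared genes, at any size of fold under the high-fat diet. Of 1465 depleted at least 2-fold, 1361 were. Of 87 lists with at least 5 listed genes, 85 had medians of the same sign. Kinesins had -0.50 in chow and 0.41 in the high-fat table, and chromatin modifiers -0.08 and 0.44, and in chow the members of both lists divided nearly evenly by direction. With a minimum of 5 FPKM the chow medians were -0.071 for kinesins and 0.32 for chromatin modifiers. The relation with transcript length was smaller there, with a rank correlation of -0.25 and 33.97% enriched in the longest of 10 bins.

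**Figure D5:**
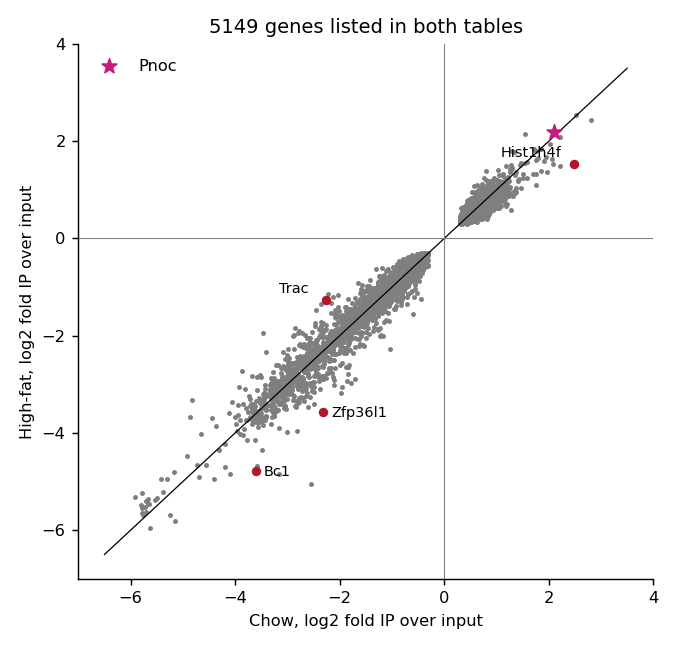
Log2 fold of immunoprecipitate over input in chow (x axis) and under the high-fat diet (y axis) for the 5149 genes listed in both tables, with the line of equal values. Each dot is 1 gene and Pnoc is a star. No gene lies in the upper left or lower right quadrant, the empty band around 0 holds genes that were not listed, and Zfp36l1 and Bc1 lie lowest below the line among the named genes, at differences of -1.26 and -1.18.

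The chow genes that the high-fat table did not hold numbered 956, 548 enriched and 408 depleted, and their median absolute log2 fold was 0.55, against 0.73 for the genes in both. A gene absent from that table may have been untested, not significant or under the limit. Among those with at least 5 FPKM, chosen here by the size of their fold, Fsd1, a microtubule-associated protein, went from 18.04 to 43.8 FPKM (log2 fold 1.28), and Mrpl14, of the mitochondrial ribosome, from 14.7 to 31.3 FPKM (log2 fold 1.09). Sgk1, a kinase induced by glucocorticoids, went from 43.7 to 21.9 FPKM (log2 fold -0.9997), Mat2a, which makes S-adenosylmethionine, from 11.2 to 1.78 FPKM (log2 fold -2.65), and Fshb, a pituitary hormone subunit, from 6.28 to 0.527 FPKM (log2 fold -3.57). Among genes in both tables that reached 5 FPKM in chow, the largest differences were those of Zfp36l1, which binds AU-rich messengers, with a log2 fold of -2.31 in chow and -3.57 under the high-fat diet, and Bc1, with -3.60 and -4.79. Ttr, from the choroid plexus, had 54.7 FPKM in the chow input and 8.89 FPKM in the high-fat input, and Cga, from the pituitary, 72.6 and 22.1 FPKM, and the part of such tissue in the differences between diets was not tested. The differences between diets have no test here.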

How the data were processed

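Hypothalamic RNA of PNOC-L10a-EGFP mice was measured by RNA sequencing in 4 input and 4 immunoprecipitate libraries per diet. Per the labels' protocols, RNA was purified with a column kit, and cDNA was made with oligo(dT) and random primers and amplified before library preparation. Amplification can distort levels by transcript length and GC content. The tools named in the submitters' processing notes are Cuffdiff, Cufflinks 2.2.1, HISAT2 2.1.0 and StringTie 1.3.4d, with the build GRCm38.p6. How libraries were scaled, whether strand was used and which Cuffdiff version ran is not given in those notes.

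Per the file headers, each of the 2 deposited tables gives 1 FPKM value per group, made by the authors, with their log2 fold, test statistic (a score), p-value and q-value. Entries are all significant, with deposited q-values from 0.000379 to 0.0499. Columns of per-sample values left unused numbered 0. Read depth is unknown, so neither intervals nor floors are given.

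Entries repeating a locus and its values were merged (548 entries), and the log2 ratio of the authors' FPKM was recomputed, differing from the deposited log2 by at most 1.31e-05. A locus with several identifiers (344 of 6105) counts once, and its value cannot be divided among its genes. Lengths, GC content and biotypes came from GENCODE release 21 for mouse (M21), with 1 annotated transcript per gene, and promoters from RefSeq. Medians, shares and correlations were computed in Python 3.11.15 with pandas 2.3.3 and NumPy 2.4.6. The merging of entries, the folds, the count of enriched genes and the matching of names to lists were tested on simulated data. The other calculations were not. No test of differences was computed, because none is possible without values per library. The members and the 92 gene lists were chosen with earlier results of these data known. Genes named are list members, at most 10 per list, the 15 highest and 15 lowest folds among coding genes with at least 5 FPKM, the 10 most abundant per group, and Pnoc and Rpl10a. Other genes, and those from the middle of a long list, were chosen after their values were seen. Alternatives were another FPKM minimum (0 or 5), a pseudocount of 1 FPKM, centring on the median, a q of 0.01, unmerged entries and single-identifier loci.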

Additional observations from a re-analysis of the deposited data

How the results depend on the processing

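No paired analysis was possible because the deposited tables hold no value per library, and for the same reason no library could be left out. With a minimum of 5 FPKM, the depleted genes numbered 1434 in place of 2574 and those depleted at least 2-fold 688 in place of 1465. Genes enriched at least 2-fold numbered 41 once folds were centred on the median (253 as deposited) and 144 with a pseudocount of 1 FPKM. The other counts stayed within 1.5 times of their value under every alternative run. Centring turned the sign of 7 list medians: adenylyl cyclases and phosphodiesterases (-0.0391), semaphorins, plexins and neuropilins (-0.0898), Rab GTPases (-0.0381), imprinted genes (-0.0574), exosome and RNA decay (-0.0329), ubiquitin peptidases (-0.38) and ABC transporters (-0.0256). It moved the other 82, since it shifts every fold by the same amount. The minimum of 5 FPKM turned 5: cathepsins and lysosomal membrane (0.37), nuclear receptors (0.39), chromatin modifiers (0.32), Toll-like receptors and chemokines (0.74) and solute carriers (0.43), and moved 10 others. The pseudocount turned none of the 89 list medians and moved 16. The centre itself lies in the listed genes, so it fixes by construction how many lie on either side, and the cause of the other changes was not tested. Without values per library, the precision of each fold rests on the authors' statistic alone, and the error drawn from it is only a rough scale.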

Other observations

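Further lists in the chow table, not described above, went as follows, beside 57.8% enriched among all listed genes. Contactins and their partners had 5 of 6 enriched, with Cntnap2, which clusters potassium channels on axons, at a log2 fold of 0.84 and Cntn2 at -0.95. All 5 listed autophagy genes were enriched, led by Atg7, an enzyme that activates autophagy conjugation, at 1.02. Rab GTPases, which direct vesicle traffic, had 16 of 24 enriched. Rab37 stood at 1.02 and Rab3b, of synaptic vesicles, at 0.90, while Rab31, known from glia, had 16.5% of input. Adenylyl cyclases and phosphodiesterases had 7 of 12 enriched, with Adcy7 at 0.77 and Pde8a at -2.78, and MAP kinase phosphatases 7 of 11, from Dusp14 at 0.65 to Dusp11, an RNA phosphatase, at -2.47.

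F-box and TRIM proteins, many of them ubiquitin ligases, had 24 of 39 enriched. Trim28, a corepressor, went from 48.03 to 97.2 FPKM (log2 fold 1.02), and Trim12a, from 1.43 to 0.118 FPKM (log2 fold -3.60). Ubiquitin peptidases were even, 6 and 6, with Usp5 at 0.59 and Usp40 at -1.52. Exosome and RNA decay genes had 6 of 8 enriched, with the nuclease Xrn1 at -0.44, and ABC transporters 7 of 13, from Abcf1 at 0.76 to Abca1, the cholesterol exporter, at -1.89. Of 5 listed Toll-like receptors and chemokines 2 were enriched, Ccl17 from 3.52 to 7.67 FPKM (log2 fold 1.12) and Cx3cl1, the neuronal ligand of the microglial fractalkine receptor, from 33.4 to 55.9 FPKM (log2 fold 0.74). Fewer than 5 genes were listed for peroxisome biogenesis (3 of 4 enriched), netrin and Slit guidance (1 of 3), the circadian clock (1 of 2), collagens (0 of 1) and calcium-activated potassium channels (0 of 1, Kcnn2 at -1.005).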
